A study of Homo sapiens with 9 samples.

Results

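The 35 genes described here act at the transition from G2 into mitosis and during mitosis and cytokinesis. They were taken from a list of symbols and matched to Ensembl identifiers in the deposited table. All 35 were found among its 31004 genes, and 33 had enough signal to be tested, against 11875 genes tested in all. Levels are in FPKM, that is, reads per length of gene model and per library depth.

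The study lowered the long noncoding RNA FAM83H-AS1 in MDA-MB-468 cells, a breast cancer line of the basal, triple-negative kind, and sequenced total RNA. The 3 groups were cells with the hairpin shFAM83H-AS1_1, cells with the hairpin shFAM83H-AS1_2 and cells with the control hairpin shNC, with 3 libraries each. All 3 groups had been transduced with lentivirus at an MOI of 10 and kept under puromycin selection at 1 µg/mL, so the controls had also passed infection and selection. The selected lines are stable lines, and nothing in the labels says that libraries of 1 group were separate cultures. The p-values below therefore measure the spread between these libraries, which may be technical.

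Entry into mitosis is driven by cyclin B bound to the kinase CDK1, helped by cyclin A2, the phosphatase CDC25C and the Polo and Aurora kinases. The spindle checkpoint, with TTK, BUB1 and BUB1B, holds the anaphase-promoting complex (APC/C) and its activator CDC20 until every kinetochore is attached. Most of these genes are transcribed late in the cell cycle, through CCAAT boxes bound by NF-Y and through the cell cycle genes homology region (CHR), which binds the DREAM repressor in resting cells and the MYBL2-MuvB and FOXM1 activators in G2. Their summed RNA in a culture is widely used as a measure of proliferation. In RNA from bulk cells, fewer cells in G2 and mitosis and less of these RNAs per cell cannot be told apart.

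Libraries held 15265629 to 18108408 reads in genes. Replicates correlated across genes at 0.979 to 0.988 on the log2 scale, except shFAM83H-AS1_1 replicate 3, which correlated at 0.950 and 0.941 with the other libraries of its group. That library stood apart on the first principal component (score 61.2, 53.5% of the variance), so results with shFAM83H-AS1_1 are given with and without it. FAM83H-AS1 was read from ENSG00000203499, a gene now named IQANK1 that RefSeq lists with FAM83H-AS1 as a synonym, so reads of either transcript cannot be told apart. This gene was at 7.37, 5.54 and 4.93 FPKM in shFAM83H-AS1_1 libraries, 8.56, 7.92 and 7.46 FPKM in shFAM83H-AS1_2 libraries and 17.9, 17.5 and 14.3 FPKM in shNC libraries, so each hairpin library was below each control library. Its log2 change was -1.35 (limma adjusted p = 0.00637) with shFAM83H-AS1_1 and -0.96 (adjusted p = 0.142, and 0.018 without replicate 3 of shFAM83H-AS1_1) with shFAM83H-AS1_2. All 8 epithelial markers (KRT5, KRT14, KRT17, KRT8, KRT18, EPCAM, CDH1 and EGFR) reached 1 FPKM in at least 1 library. By contrast, 0 of 6 leukocyte and 0 of 3 endothelial markers did. Of 6 fibroblast markers, 3 were in the table, with summed levels of 1.65 to 2.80 FPKM in shFAM83H-AS1_1, 1.43 to 2.39 FPKM in shFAM83H-AS1_2 and 0.711 to 1.12 FPKM in shNC. The collagen gene COL1A1 made up nearly all of these sums, while PDGFRB and LUM were at most at 0.0947 and 0.0207 FPKM in any library. The part of these markers in the values below was not tested.

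No mitotic member passed the test with either hairpin, and in 8 of the 9 libraries the set lay close to control. Replicate 3 of shFAM83H-AS1_1 held less RNA of most members, and of some long members such as ANLN and MKI67 only a small part of the level elsewhere, while CDC20, PTTG1 and CDC25C in the same library were near the mean of the other 8.

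The promoters of 4 members are shown first, since members of this set are known to share promoter elements. They are the lowest pair and the highest pair in replicate 3 of shFAM83H-AS1_1 on the log2(FPKM + 1) scale, relative to the mean of the other libraries. As a share of the mean FPKM of those libraries, CENPE and ASPM were lower than ANLN and MKI67, and CDC20 was level with CDC25C. RefSeq windows on GRCh38.p14, running from 250 bases before to 50 bases after the start of the gene, were held for 29 of the 35 members, and FOXM1, AURKA, TTK, UBE2C, TPX2 and BIRC5 were not matched. Capitals mark TTTGAA (a CHR core) and CCAAT on either strand, so TTCAAA and ATTGG are the same motifs read from the other strand. ANLN, an actin-binding scaffold of the cleavage furrow, is shown at chr7:36389612-36389911, plus strand. MKI67, which encodes the Ki-67 coat protein of mitotic chromosomes, is shown at chr10:128126374-128126673, minus strand. PTTG1, which encodes securin, is shown at chr5:160421605-160421904, plus strand, and CDC25C at chr5:138331828-138332127, minus strand.
ANLN: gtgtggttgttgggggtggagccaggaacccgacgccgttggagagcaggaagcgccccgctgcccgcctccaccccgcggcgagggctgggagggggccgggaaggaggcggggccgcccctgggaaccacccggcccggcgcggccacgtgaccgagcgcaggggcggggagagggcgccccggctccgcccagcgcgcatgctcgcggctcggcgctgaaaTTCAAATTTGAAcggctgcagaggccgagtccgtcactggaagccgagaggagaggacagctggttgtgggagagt
MKI67: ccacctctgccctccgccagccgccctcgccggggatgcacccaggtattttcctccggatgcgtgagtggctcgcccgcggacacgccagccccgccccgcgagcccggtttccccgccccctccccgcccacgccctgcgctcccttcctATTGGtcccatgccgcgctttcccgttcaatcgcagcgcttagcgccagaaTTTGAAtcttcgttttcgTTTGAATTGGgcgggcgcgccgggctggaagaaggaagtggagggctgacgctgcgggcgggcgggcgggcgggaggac
PTTG1: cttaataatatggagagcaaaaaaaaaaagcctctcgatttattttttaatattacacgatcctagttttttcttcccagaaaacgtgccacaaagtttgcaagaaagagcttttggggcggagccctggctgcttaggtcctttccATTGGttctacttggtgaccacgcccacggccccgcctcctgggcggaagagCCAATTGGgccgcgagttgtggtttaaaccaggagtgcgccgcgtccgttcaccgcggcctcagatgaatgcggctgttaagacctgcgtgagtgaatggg
CDC25C: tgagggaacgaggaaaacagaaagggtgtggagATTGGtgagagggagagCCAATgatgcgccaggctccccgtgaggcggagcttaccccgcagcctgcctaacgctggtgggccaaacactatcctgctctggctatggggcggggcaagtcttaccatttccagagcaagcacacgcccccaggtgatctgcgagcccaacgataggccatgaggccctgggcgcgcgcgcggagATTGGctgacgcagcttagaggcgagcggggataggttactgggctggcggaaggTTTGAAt
The ANLN window held 2 TTTGAA motifs, adjacent on opposite strands, and no CCAAT. The MKI67 window held 2 TTTGAA and 2 CCAAT, and 1 of each shared a letter. The PTTG1 window, 1 of 2 overlapping windows with the same number of matches, held 3 CCAAT, of which a pair shared letters, and no TTTGAA. The CDC25C window, the one of its 4 with the most matches, held 1 TTTGAA and 3 CCAAT.

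Over the windows of all members, TTTGAA or its variant TTCGAA occurred in 22 of 29 members (75.9%), in 2 of 31 DNA replication genes (6.45%) and in 5336 of 27305 genes (19.5%). CCAAT occurred in 23 of 29 members (79.3%), in 19 of 31 replication genes (61.3%) and in 10846 of 27305 genes (39.7%). Both motifs occurred together in 18 members (62.1%), against 7.85% of all genes. A gene was counted if any of its windows held the motif, and members had 1.24 windows per gene, against 1.29 over all genes. These counts describe letters in a window, and a match is not a bound site. Of the tested members, the 20 with TTTGAA or TTCGAA had a median level in replicate 3 of -1.51 relative to the mean of the other 8 libraries on the log2(FPKM + 1) scale, and the 7 without had -0.32. The members with a motif were also the longer ones, with a median gene model of 4612 bases against 2798 bases, so motif and length cannot be told apart in this comparison.

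With shFAM83H-AS1_1 against shNC, 0 of 33 members passed the limma test at an adjusted p of 0.05, where 187 of all 11875 genes did (1.57%), 0.935% higher and 0.64% lower. At an unadjusted p under 0.05 there was 1 member, CCNA2, where 25.3% of all genes were, and voom on recovered reads called 0 members, where it called 0.674% of all genes. The median log2 change of the members was -0.25, against -0.08 over all genes tested, with 28 members below 0 and 5 above. Without replicate 3 the median was 0.03 (all genes -0.00), 19 members were above 0 and 14 below, 0 were called where 1.76% of all genes were, and 1 member, HMMR, had an unadjusted p under 0.05, where 17.8% of all genes did.

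With shFAM83H-AS1_2 against shNC, 0 of 33 members passed, where 3 of all genes did (0.0253%). No member had an unadjusted p under 0.05, where 6.68% of all genes did, and voom called 0, where it called 0.00842% of all genes. The median log2 change was 0.02, against -0.01 over all genes, with 18 members above 0 and 15 below. Without replicate 3 of shFAM83H-AS1_1 in the fit, 0 members were called, where 0.354% of all genes were, and 0 had an unadjusted p under 0.05, where 15.5% of all genes did. Intervals given below for shFAM83H-AS1_2 are from the fit of 9 libraries, whose spread includes that library. Without it the interval of MKI67 was -0.18 to 0.43, against -1.14 to 1.39. Those of ANLN and CENPF were -0.61 to 0.25 and -0.38 to 0.92, against -1.56 to 1.20 and -1.07 to 1.61. That of AURKB changed little, to -0.20 to 0.46. In a fit of only shFAM83H-AS1_2 and shNC with same-numbered libraries as pairs, 0 members were called, where 617 of all genes were (5.2%), and 3 members had an unadjusted p under 0.05, where 26.3% of all genes did. These were CCNA2 (-0.30), KIF23 (-0.22) and HMMR (0.30), with adjusted p of 0.128, 0.13 and 0.163.

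Between the hairpins, shFAM83H-AS1_2 against shFAM83H-AS1_1, 0 of 33 members passed by limma or by voom and 0 had an unadjusted p under 0.05, where 0.0926% of all genes passed by limma (0.0842% higher, 0.00842% lower), 0.0337% passed by voom and 8% had such a p. The median was 0.24 (all genes 0.06), and all 33 members were above 0. Without replicate 3 of shFAM83H-AS1_1 the median was -0.04, with 14 members above 0 and 19 below, 0 members passed where 0.143% of all genes did, and 0 had an unadjusted p under 0.05 where 6.95% of all genes did. These contrasts share libraries, so their values are not independent of each other.

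The 3 groups overlapped for every tested member in every contrast. The library levels of 0 of 33 members were separated between shFAM83H-AS1_1 and shNC, where 15.3% of all genes were separated with the hairpin lower and 14.4% with it higher. For shFAM83H-AS1_2 against shNC these shares of all genes were 10.9% lower and 11.1% higher, and between the hairpins 5.88% lower and 6.13% higher. Without replicate 3, the shFAM83H-AS1_1 libraries lay above all shNC libraries for 4 members, named here after their values were seen, CENPE, CENPF, HMMR and ASPM, where 18.4% of all genes did so, and below them for 0 members, where 17.1% of all genes did.

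**Figure D1:**
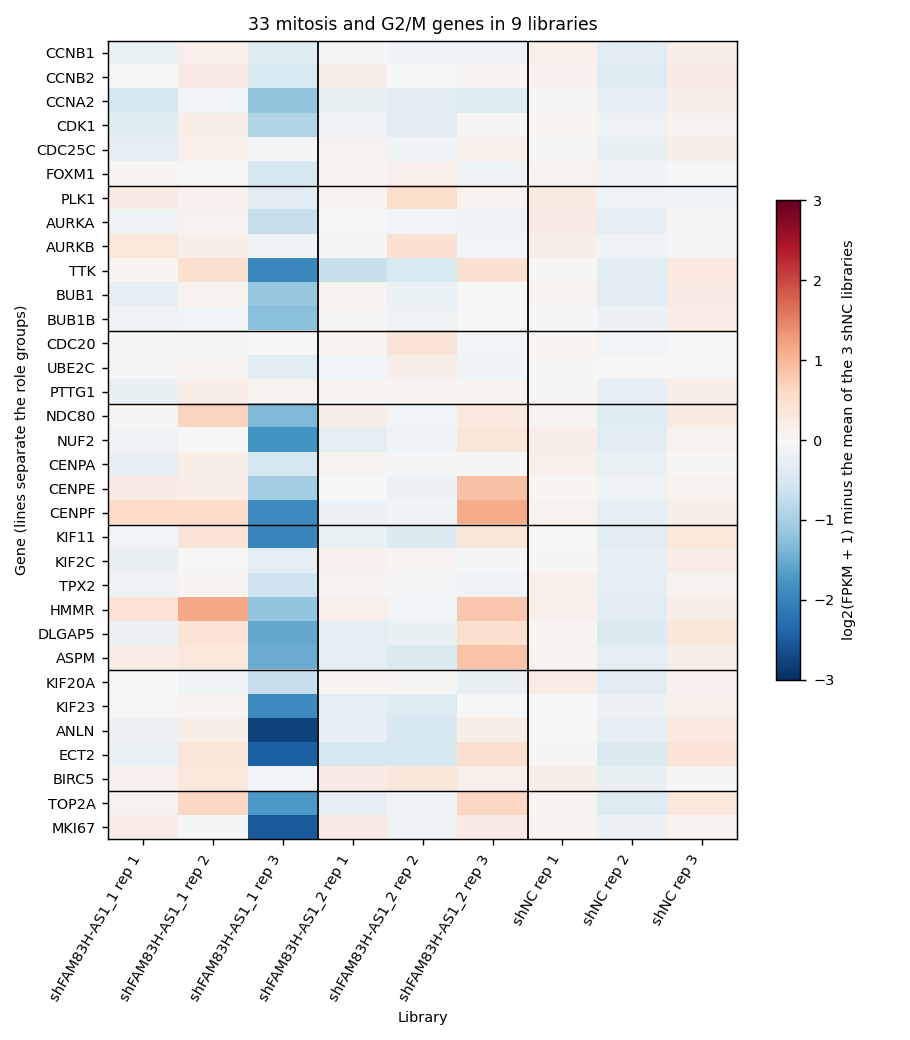
Level of each of the 33 tested mitosis and G2/M genes (rows, grouped by role) in each of the 9 libraries (columns), as log2(FPKM + 1) minus the mean of the 3 shNC libraries. Replicate 3 of shFAM83H-AS1_1 is the darkest column, with ANLN, MKI67 and ECT2 lowest and CDC20, PTTG1 and CDC25C near 0, and shNC replicate 2 is slightly below 0 in all 33 rows.

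Among the cyclins, CDK1 and their regulators (6 tested, median log2 change -0.14 with shFAM83H-AS1_1, -0.04 without its replicate 3, and -0.04 with shFAM83H-AS1_2), only CCNA2 reached an unadjusted p under 0.05. Values run in the order of replicates 1, 2 and 3. CCNB1 (ENSG00000134057, chr5:69167135-69178245, plus strand), which encodes cyclin B1, the partner of CDK1 at mitotic entry, had 153, 195 and 136 FPKM in shFAM83H-AS1_1, 171, 162 and 156 FPKM in shFAM83H-AS1_2, and 194, 140.1 and 198 FPKM in shNC. The control libraries spanned the range of all other libraries except replicate 3 of shFAM83H-AS1_1, the lowest of the 9. Its log2 change was -0.14 (95% interval -0.51 to 0.24, limma adjusted p = 0.609) with shFAM83H-AS1_1 and -0.10 (95% interval -0.48 to 0.27, limma adjusted p = 0.926) with shFAM83H-AS1_2.

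CCNB2 (ENSG00000157456, chr15:59105126-59125045, plus strand), the second B-type cyclin, had 48.6, 57.0 and 34.7 FPKM in shFAM83H-AS1_1, 55.8, 47.7 and 50.2 FPKM in shFAM83H-AS1_2, and 52.8, 36.8 and 57.9 FPKM in shNC. The lowest library was again replicate 3 of shFAM83H-AS1_1, followed by replicate 2 of shNC. CCNA2 (ENSG00000145386, chr4:121816444-121823933, minus strand), which encodes cyclin A2 of S phase and G2, had 34.2, 45.5 and 21.2 FPKM in shFAM83H-AS1_1, 41.5, 38.2 and 37.5 FPKM in shFAM83H-AS1_2, and 49.5, 40.6 and 55.8 FPKM in shNC. Replicates 1 and 3 of shFAM83H-AS1_1 and replicates 2 and 3 of shFAM83H-AS1_2 were below the lowest control, but replicate 2 of shFAM83H-AS1_1 and replicate 1 of shFAM83H-AS1_2 were above it, so both hairpin groups overlapped with control. CCNA2 averaged 33.6 ± 12.2 FPKM in shFAM83H-AS1_1, 39.1 ± 2.15 FPKM in shFAM83H-AS1_2 and 48.6 ± 7.65 FPKM in shNC (SD, n = 3 each). Its log2 change was -0.57 (95% interval -1.09 to -0.05, limma adjusted p = 0.173) with shFAM83H-AS1_1, with an unadjusted p of 0.0346, and -0.30 (95% interval -0.82 to 0.22, limma adjusted p = 0.832) with shFAM83H-AS1_2, the lowest of the members. Without replicate 3 it was -0.28 (95% interval -0.64 to 0.07, limma adjusted p = 0.39) with shFAM83H-AS1_1. In GENCODE release 29, 9.08% of the CCNA2 exon bases lie opposite EXOSC9, and the strand setting of the counting is not given in the sources used here.

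CDK1, the kinase itself, had 15.4 FPKM in replicate 3, against 23.2 to 34.3 FPKM in the other 8 libraries (median 28.7). CDC25C, the phosphatase that removes the inhibitory phosphates from CDK1, had 8.52 FPKM in replicate 3, against 7.03 to 10.2 FPKM in the other 8 libraries (median 9.32). FOXM1, a transcription factor of late cell cycle genes, had 21.1 FPKM in replicate 3, against 26.8 to 33.4 FPKM in the other 8 libraries (median 30.7). Of these, CDC25C was inside the range of the other 8 libraries in replicate 3, and the others were below it. Their log2 changes lay between -0.36 (CDK1) and -0.06 (CDC25C) with shFAM83H-AS1_1, and between -0.14 (CDK1) and 0.04 (CDC25C) with shFAM83H-AS1_2.

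Among the mitotic kinases (6 tested, median log2 change -0.34 with shFAM83H-AS1_1, 0.08 without its replicate 3, and -0.04 with shFAM83H-AS1_2), the Polo and Aurora kinases lay nearer to the other 8 libraries in replicate 3 than the checkpoint kinases did, although with trends in GC content and length removed PLK1 and BUB1 were both at -0.78. AURKA (ENSG00000087586, chr20:56369389-56392337, minus strand), the centrosomal Aurora kinase, had 66.6, 80.2 and 45.5 FPKM in shFAM83H-AS1_1, 74.9, 70.1 and 66.5 FPKM in shFAM83H-AS1_2, and 88.0, 60.7 and 76.6 FPKM in shNC. PLK1 (ENSG00000166851, chr16:23677656-23690367, plus strand), the Polo-like kinase, had 55.4, 51.1 and 36.4 FPKM in shFAM83H-AS1_1, 49.9, 67.4 and 49.9 FPKM in shFAM83H-AS1_2, and 56.2, 41.6 and 43.0 FPKM in shNC. AURKB (ENSG00000178999, chr17:8204733-8210600, minus strand), the kinase of the chromosomal passenger complex, had 48.1, 43.4 and 35.3 FPKM in shFAM83H-AS1_1, 39.4, 53.0 and 35.9 FPKM in shFAM83H-AS1_2, and 43.7, 35.2 and 36.8 FPKM in shNC. Replicate 3 of shFAM83H-AS1_1 was the lowest library for AURKA and PLK1 and lay just above the lowest library, shNC replicate 2, for AURKB, while PLK1 and AURKB were highest in replicate 2 of shFAM83H-AS1_2. The log2 change of AURKB was 0.12 (95% interval -0.26 to 0.50, limma adjusted p = 0.646) with shFAM83H-AS1_1 and 0.13 (95% interval -0.25 to 0.51, limma adjusted p = 0.909) with shFAM83H-AS1_2, and 0.01 between the hairpins, the smallest of the members. PLK1 was at 0.01 (95% interval -0.41 to 0.44, limma adjusted p = 0.972) and at 0.24 (95% interval -0.19 to 0.67, limma adjusted p = 0.836) in the same order. For PLK1, 12.5% of the exon bases lie opposite other gene models.

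The checkpoint kinases were set further apart by replicate 3. TTK, the MPS1 kinase that starts checkpoint signalling, had 2.28 FPKM in replicate 3, against 6.80 to 16.2 FPKM in the other 8 libraries (median 11.8). BUB1, which recruits checkpoint proteins to kinetochores, had 9.08 FPKM in replicate 3, against 16.7 to 25.1 FPKM in the other 8 libraries (median 21.8). BUB1B, which encodes BUBR1 of the mitotic checkpoint complex, had 8.68 FPKM in replicate 3, against 19.6 to 25.9 FPKM in the other 8 libraries (median 21.4). All 3 were below the other 8 libraries in replicate 3. Their log2 changes with shFAM83H-AS1_1 were -0.47, -0.43 and -0.49 for TTK, BUB1 and BUB1B, and 0.26, -0.08 and -0.11 without replicate 3. A same-strand readthrough model covers 10.2% of the exon bases of BUB1B.

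The anaphase genes (3 tested) were the role group nearest to the other 8 libraries in replicate 3 of shFAM83H-AS1_1 as deposited, with a median of -0.05. With trends in GC content and length removed their median was -0.48, below that of the cyclins and regulators (-0.43). CDC20 (ENSG00000117399, chr1:43358981-43363203, plus strand), the activator of the APC/C, had 197, 197 and 202 FPKM in shFAM83H-AS1_1, 212, 269 and 194 FPKM in shFAM83H-AS1_2, and 214, 194 and 205 FPKM in shNC. Replicate 2 of shFAM83H-AS1_2 was the highest, and the other 8 libraries, replicate 3 of shFAM83H-AS1_1 among them, lay within 194 to 214 FPKM. PTTG1 (ENSG00000164611, chr5:160421855-160428739, plus strand), which encodes securin, the inhibitor of separase, had 128, 174 and 163 FPKM in shFAM83H-AS1_1, 158, 160.4 and 159 FPKM in shFAM83H-AS1_2, and 155, 127 and 174 FPKM in shNC. UBE2C, the ubiquitin-conjugating enzyme of the APC/C, had 119 FPKM in replicate 3, against 135 to 166 FPKM in the other 8 libraries (median 147). Only UBE2C of these was below the other 8 libraries in replicate 3. The log2 changes with shFAM83H-AS1_1 were -0.04 (95% interval -0.33 to 0.25, limma adjusted p = 0.848) for CDC20, 0.03 (95% interval -0.30 to 0.36, limma adjusted p = 0.914) for PTTG1 and -0.09 (95% interval -0.38 to 0.21, limma adjusted p = 0.687) for UBE2C, so the intervals of all 3 leave out a change of 0.5 or more on the log2 scale in either direction. With shFAM83H-AS1_2 they were 0.13, 0.08 and -0.02. The related gene models PTTG2, CDC20P1, AURKAP1, UBE2CP2 and UBE2CP5, which could share reads with members, were at most at 0.472 FPKM.

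**Figure D2:**
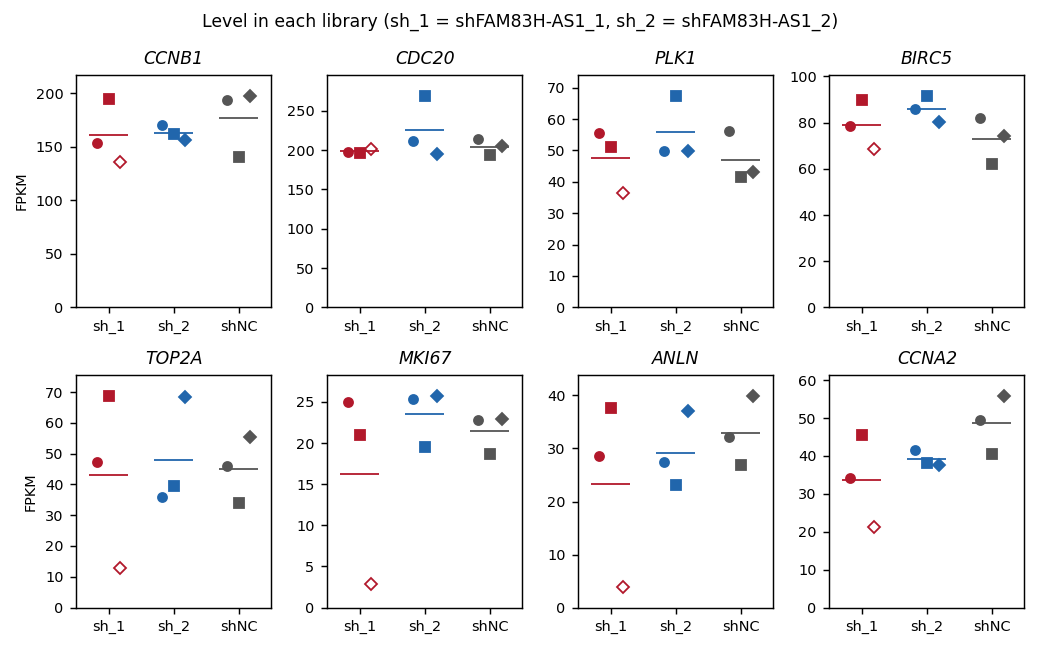
FPKM of 8 members in each library, in shFAM83H-AS1_1 (sh_1, red), shFAM83H-AS1_2 (sh_2, blue) and shNC (grey), with circles, squares and diamonds for replicates 1, 2 and 3, an open diamond for replicate 3 of shFAM83H-AS1_1 and a line at the mean of each group. For TOP2A, MKI67 and ANLN the open diamond lies far below all other libraries, for CDC20 it lies among them.

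At the kinetochore and centromere (5 tested, median log2 change -0.21 with shFAM83H-AS1_1, 0.22 without its replicate 3, and 0.14 with shFAM83H-AS1_2), libraries of both hairpins lay on either side of control. NDC80 (ENSG00000080986, chr18:2571557-2616635, plus strand), a subunit of the complex that binds microtubules, had 31.1, 48.9 and 11.6 FPKM in shFAM83H-AS1_1, 35.4, 28.8 and 37.8 FPKM in shFAM83H-AS1_2, and 32.6, 23.6 and 36.9 FPKM in shNC. CENPA (ENSG00000115163, chr2:26764289-26801067, plus strand), the histone variant of centromeres, had 30.1, 40.7 and 24.9 FPKM in shFAM83H-AS1_1, 37.5, 34.2 and 36.5 FPKM in shFAM83H-AS1_2, and 39.5, 31.1 and 36.7 FPKM in shNC. CENPF (ENSG00000117724, chr1:214603195-214664571, plus strand), a large outer kinetochore protein, had 11.9, 11.6 and 1.28 FPKM in shFAM83H-AS1_1, 6.53, 6.91 and 17.4 FPKM in shFAM83H-AS1_2, and 8.23, 6.08 and 8.63 FPKM in shNC. CENPF was highest in replicate 3 of shFAM83H-AS1_2 and lowest in replicate 3 of shFAM83H-AS1_1, while the control libraries lay within 6.08 to 8.63 FPKM. Its log2 change was -0.25 (95% interval -1.59 to 1.09, limma adjusted p = 0.795) with shFAM83H-AS1_1, 0.57 (95% interval -0.15 to 1.30, limma adjusted p = 0.397) without replicate 3, and 0.27 (95% interval -1.07 to 1.61, limma adjusted p = 0.947) with shFAM83H-AS1_2. NUF2, the partner of NDC80, had 3.23 FPKM in replicate 3, against 10.7 to 17.9 FPKM in the other 8 libraries (median 13.1). CENPE, a kinetochore motor, had 0.126 FPKM in replicate 3, against 1.05 to 3.26 FPKM in the other 8 libraries (median 1.44), the value in replicate 3 resting on 20 reads. A same-strand gene model, SLC35F6, covers 6.96% of the exon bases of CENPA.

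Among the spindle motors and microtubule proteins (6 tested, median log2 change -0.27 with shFAM83H-AS1_1, 0.13 without its replicate 3, and 0.03 with shFAM83H-AS1_2), HMMR had the highest change of all members with each hairpin. TPX2 (ENSG00000088325, chr20:31739271-31801805, plus strand), which activates AURKA on the spindle, had 77.1, 90.1 and 54.6 FPKM in shFAM83H-AS1_1, 89.6, 82.4 and 79.0 FPKM in shFAM83H-AS1_2, and 94.8, 70.9 and 91.5 FPKM in shNC. KIF2C (ENSG00000142945, chr1:44739818-44767767, plus strand), a microtubule-depolymerising kinesin, had 63.4, 72.8 and 60.1 FPKM in shFAM83H-AS1_1, 80.9, 78.5 and 72.3 FPKM in shFAM83H-AS1_2, and 75.6, 61.7 and 85.5 FPKM in shNC. HMMR (ENSG00000072571, chr5:163460203-163491941, plus strand), a spindle-associated protein also known as a hyaluronan receptor, had 12.3, 20.8 and 3.43 FPKM in shFAM83H-AS1_1, 10.0, 8.36 and 16.4 FPKM in shFAM83H-AS1_2, and 9.92, 6.81 and 10.3 FPKM in shNC. HMMR was highest in replicate 2 of shFAM83H-AS1_1, next in replicate 3 of shFAM83H-AS1_2 and lowest in replicate 3 of shFAM83H-AS1_1, so the spread within each hairpin group exceeded the difference from control. HMMR averaged 12.2 ± 8.67 FPKM in shFAM83H-AS1_1, 11.6 ± 4.25 FPKM in shFAM83H-AS1_2 and 9.01 ± 1.91 FPKM in shNC (SD, n = 3 each). Its log2 change was 0.14 (95% interval -0.94 to 1.22, limma adjusted p = 0.864) with shFAM83H-AS1_1, 0.79 (95% interval 0.15 to 1.42, limma adjusted p = 0.185) without replicate 3, and 0.30 (95% interval -0.78 to 1.38, limma adjusted p = 0.926) with shFAM83H-AS1_2.

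KIF11, the plus-end motor that pushes spindle poles apart, had 3.11 FPKM in replicate 3, against 10.8 to 19.6 FPKM in the other 8 libraries (median 14.5). DLGAP5, which stabilises kinetochore fibres, had 6.53 FPKM in replicate 3, against 15.6 to 30.0 FPKM in the other 8 libraries (median 20.2). ASPM, a spindle pole protein, had 0.264 FPKM in replicate 3, against 1.65 to 5.33 FPKM in the other 8 libraries (median 2.88), the value in replicate 3 resting on 46 reads. All 3 were below the other 8 libraries in replicate 3. NUSAP1, which bundles spindle microtubules, stayed between 0.0511 and 0.218 FPKM and was not tested. In GENCODE release 29, 62.2% of its exon bases are covered by a second gene model on the same strand, so reads of both models cannot be told apart and its level is uncertain.

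At the midzone and in cytokinesis (5 tested), BIRC5 and KIF20A lay nearer to control in replicate 3 of shFAM83H-AS1_1 than KIF23, ANLN and ECT2 did. BIRC5 (ENSG00000089685, chr17:78214186-78225636, plus strand), which encodes survivin of the chromosomal passenger complex, had 78.7, 89.8 and 68.5 FPKM in shFAM83H-AS1_1, 86.0, 91.6 and 80.3 FPKM in shFAM83H-AS1_2, and 81.9, 62.0 and 74.4 FPKM in shNC. KIF20A (ENSG00000112984, chr5:138178719-138187723, plus strand), a midzone kinesin, had 66.3, 60.3 and 40.2 FPKM in shFAM83H-AS1_1, 68.6, 67.6 and 55.8 FPKM in shFAM83H-AS1_2, and 76.2, 51.3 and 72.1 FPKM in shNC. KIF23 (ENSG00000137807, chr15:69414246-69448427, plus strand), which encodes the MKLP1 kinesin of the midbody, had 14.9, 16.0 and 3.28 FPKM in shFAM83H-AS1_1, 12.0, 11.3 and 15.0 FPKM in shFAM83H-AS1_2, and 15.2, 13.1 and 16.8 FPKM in shNC. For KIF23, 8 libraries lay between 11.3 and 16.8 FPKM and replicate 3 of shFAM83H-AS1_1 was far below. ANLN (ENSG00000011426, chr7:36389821-36453791, plus strand), whose promoter is printed with those of MKI67, PTTG1 and CDC25C, had 28.5, 37.6 and 3.90 FPKM in shFAM83H-AS1_1, 27.4, 23.0 and 37.0 FPKM in shFAM83H-AS1_2, and 32.2, 26.9 and 39.9 FPKM in shNC. ANLN in replicate 3 was 12.4% of the mean of the other 8 libraries. Its log2 change was -0.92 (95% interval -2.30 to 0.46, limma adjusted p = 0.352) with shFAM83H-AS1_1, the lowest of the members, but 0.01 (95% interval -0.47 to 0.49, limma adjusted p = 0.992) without replicate 3, and -0.18 (95% interval -1.56 to 1.20, limma adjusted p = 0.963) with shFAM83H-AS1_2. BIRC5 had 0.12 (95% interval -0.19 to 0.43, limma adjusted p = 0.595) and 0.24 (95% interval -0.07 to 0.56, limma adjusted p = 0.765) with the hairpins in the same order. ECT2, the exchange factor that activates RhoA at the furrow, had 3.03 FPKM in replicate 3, against 14.4 to 30.4 FPKM in the other 8 libraries (median 19.9). PRC1, the microtubule bundler of the midzone, stayed between 0.0113 and 0.114 FPKM and was not tested. Its level is uncertain too, since 57.6% of its exon bases are covered by a gene model on the same strand, ENSG00000284946, which was at 0.446 to 1.12 FPKM.

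Of the chromosome structure genes, TOP2A (ENSG00000131747, chr17:40388525-40417896, minus strand), which encodes the topoisomerase that untangles sister chromatids, had 47.3, 68.7 and 12.7 FPKM in shFAM83H-AS1_1, 36.1, 39.6 and 68.5 FPKM in shFAM83H-AS1_2, and 46.1, 33.8 and 55.3 FPKM in shNC. MKI67 (ENSG00000148773, chr10:128096659-128126423, minus strand) had 24.9, 20.9 and 2.91 FPKM in shFAM83H-AS1_1, 25.3, 19.5 and 25.7 FPKM in shFAM83H-AS1_2, and 22.8, 18.7 and 22.9 FPKM in shNC. Outside replicate 3 of shFAM83H-AS1_1, MKI67 lay between 18.7 and 25.7 FPKM in all 8 libraries, a narrower range than that of TOP2A. The log2 change of MKI67 was -0.78 (95% interval -2.04 to 0.49, limma adjusted p = 0.39) with shFAM83H-AS1_1, 0.09 (95% interval -0.25 to 0.44, limma adjusted p = 0.801) without replicate 3, and 0.12 (95% interval -1.14 to 1.39, limma adjusted p = 0.974) with shFAM83H-AS1_2. Between the hairpins it was 0.90 (95% interval -0.37 to 2.16, limma adjusted p = 0.659), the highest of the members.

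**Figure D3:**
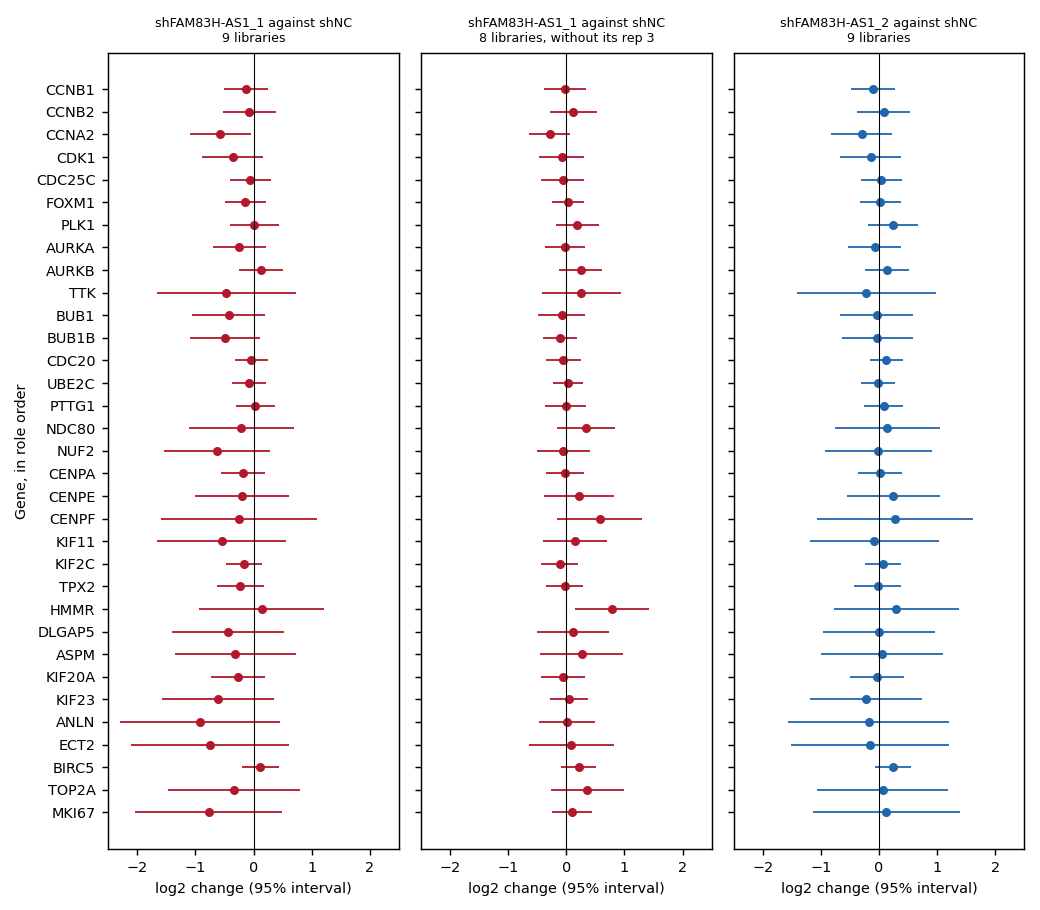
Log2 change with its 95% interval from limma (horizontal axis, on the log2(FPKM + 1) scale) for the 33 tested members in role order, for shFAM83H-AS1_1 against shNC with 9 libraries and with 8, and for shFAM83H-AS1_2 against shNC. All intervals but that of CCNA2 (left) and that of HMMR (middle) include 0, and the intervals of long genes such as ANLN and MKI67 narrow when replicate 3 is left out. The right panel uses the fit of 9 libraries, so its intervals include the spread of replicate 3 of shFAM83H-AS1_1.

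Replicate 3 of shFAM83H-AS1_1 is 1 library and allows no test. It lay below all of the other 8 libraries for 28 of 33 members, where 42.7% of all genes did, and above all of them for 0 members, where 21.8% of all genes did. It was at less than 0.5 times the mean of the other 8 for 17 members, where 19.8% of all genes were. The median member was -0.97 relative to that mean on the log2(FPKM + 1) scale, against -0.17 over all genes tested, and members ranged from -2.71 (ANLN) to 0.08 (PTTG1).

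As a share of the mean of the other 8 libraries, CENPE was at 7.80%, ASPM at 9.18%, ANLN at 12.4%, MKI67 at 12.9%, CENPF at 13.3% and ECT2 at 14.3%. At the other end PTTG1 was at 105%, CDC20 at 95.9%, CDC25C at 95.9%, BIRC5 at 85.0% and AURKB at 84.3%. By role, the median log2 level was -0.05 for anaphase genes, -0.52 for cyclins and regulators, -0.88 for kinases, -1.46 for kinetochore genes, -1.51 for spindle genes, -1.83 for midzone genes and -2.21 for chromosome structure genes. Ratios were computed only for the pairs named here, and each lay outside its range in the other 8 libraries. CDC20 with MKI67 and PTTG1 with ANLN join members from opposite ends of the levels above. The level of CDC20 over that of MKI67 was 69.3 in replicate 3, against 7.56 to 13.8 in the other 8, and that of PTTG1 over ANLN was 41.7, against 4.31 to 6.97. CCNB1 over CCNA2 was 6.40, against 3.45 to 4.48, while AURKA over AURKB was lower, at 1.29, against 1.32 to 2.08.

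The level of a member in replicate 3 followed the length and base composition of its gene model. Across the 33 members, its Spearman correlation was -0.72 with length and 0.71 with GC content, against -0.25 and 0.52 across 11835 genes, as a description over genes that share these libraries. The 17 members with a model of up to 3852 bases had a median of -0.50 and the 16 longer ones -1.70, where all genes in the same length classes had -0.01 and -0.28. Some members departed from this trend. The longer FOXM1 (4919 bases) and PLK1 (4760 bases) were at 69.4% and 70.3% of the mean of the other 8 libraries. The shorter NUF2 (3362 bases) and DLGAP5 (3597 bases) were at 23.7% and 29.7%. With trends in GC content and length over all genes removed from each library, the median member in replicate 3 was -0.77, all 33 members were below the mean of the other 8, and correlations of -0.65 with length and 0.42 with GC content remained. The part of RNA quality or library preparation in these values was not tested.

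**Figure D4:**
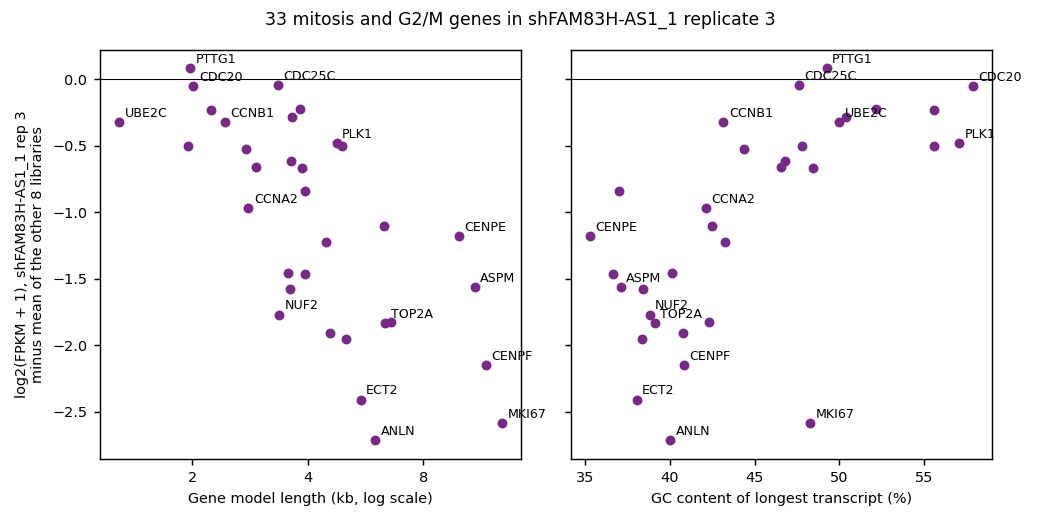
Level of each of the 33 tested members in replicate 3 of shFAM83H-AS1_1, as log2(FPKM + 1) minus the mean of the other 8 libraries (vertical axis), against gene model length in kb (left, log scale) and GC content of the longest transcript in percent (right). Levels tend to be lower for longer and for more AT-rich members, although MKI67, near the bottom, has a GC content of 48.3%. The short members PTTG1 and CDC20 lie near 0.

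In the other 8 libraries the median member stayed nearer to control, and hairpin and control libraries overlapped. The median member, relative to the shNC mean, was at -0.05 and 0.17 in replicates 1 and 2 of shFAM83H-AS1_1, against -1.03 in its replicate 3. It was at 0.03, -0.11 and 0.08 in shFAM83H-AS1_2 and at 0.09, -0.26 and 0.17 in shNC. The control library shNC replicate 2 was thus the lowest of these 8, with all 33 members below the control mean. The medians over all genes in these 8 libraries stayed between -0.04 and 0.03.

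Deviations in these 8 libraries also went with composition. Each gene's deviation was taken from its mean over all 9 libraries, replicate 3 of shFAM83H-AS1_1 among them. A low level in that library lowers this mean and so raises the deviation in the other 8. The part of this in the correlations below, their signs included, was not tested. The Spearman correlation of the members' deviation with GC content was -0.30 and -0.79 in replicates 1 and 2 of shFAM83H-AS1_1, 0.41, 0.88 and -0.80 in shFAM83H-AS1_2, and -0.25, -0.02 and -0.61 in shNC. Over 11835 genes it was 0.29 and -0.48, then -0.13, 0.58 and -0.38, then -0.40, -0.04 and -0.60, in the same order. In replicate 1 of each hairpin, members and all genes had opposite signs. In replicate 3 of shFAM83H-AS1_2, the AT-rich members CENPE, CENPF, ASPM and HMMR were at 3.26, 17.4, 5.33 and 16.4 FPKM, against 1.05, 6.91, 1.65 and 8.36 FPKM in replicate 2 of the same hairpin, where GC-rich PLK1 and CDC20 were highest. The part of base composition in these levels was not tested.

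**Figure D5:**
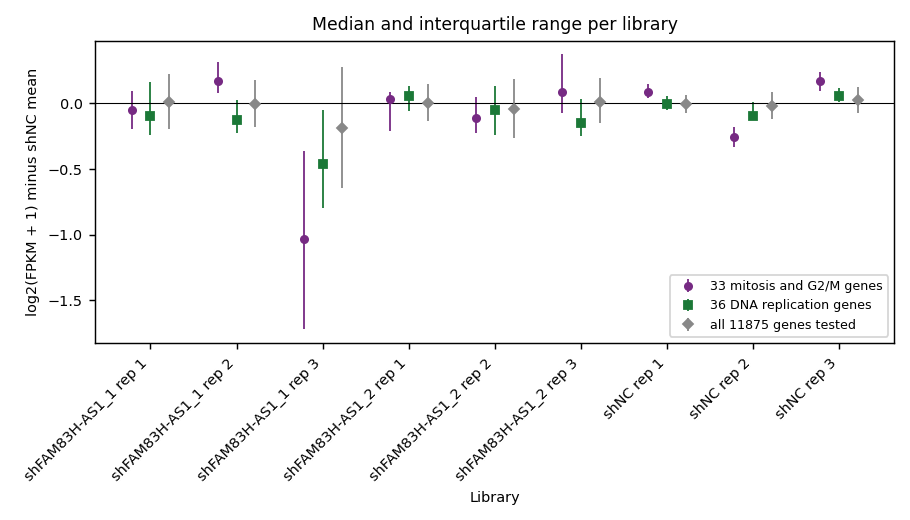
Median (symbol) and interquartile range (bar) of log2(FPKM + 1) minus the shNC mean in each library, for the 33 members, 36 DNA replication genes and all 11875 genes tested. The members sit at -1.03 in replicate 3 of shFAM83H-AS1_1 and between -0.26 and 0.17 in the other 8 libraries.

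Members moved together across the 8 libraries, as a description. The Pearson correlation of a member with the mean of the other members had a median of 0.70 and ran from -0.27 (CDC20) to 0.95 (DLGAP5), with 28 of 33 above 0. FOXM1, UBE2C, AURKB and PLK1 were, with CDC20, the members below 0. Among 5105 genes outside the set with at least 5 FPKM in every library, those that followed the members' mean most closely were NEK2 (0.98), LINC03046 (0.95), HSDL2 (0.94), SKA2 (0.93) and SDCBP (0.92), over 8 libraries that differ also in composition. The GC content of these genes was 37.4 to 41.8%. The part of base composition in these correlations was not tested. NEK2, a centrosomal kinase of mitosis, had 21.7, 28.6 and 18.1 FPKM in shFAM83H-AS1_1, 21.2, 20.3 and 24.9 FPKM in shFAM83H-AS1_2, and 24.7, 17.9 and 26.2 FPKM in shNC. SKA2, a subunit of a kinetochore complex, had 21.6, 34.6 and 14.9 FPKM, 26.6, 22.1 and 30.8 FPKM, and 26.1, 19.5 and 31.5 FPKM in the same order of groups. For both genes the lowest pair of libraries was shNC replicate 2 and replicate 3 of shFAM83H-AS1_1.

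In 5 other lists of mitotic and cell cycle genes, 0 genes were called by limma or by voom in each of the 3 contrasts. Of all genes, limma called 1.57% with shFAM83H-AS1_1, 0.0253% with shFAM83H-AS1_2 and 0.0926% between the hairpins. For voom these shares were 0.674%, 0.00842% and 0.0337%. Without replicate 3 of shFAM83H-AS1_1 limma also called 0 in these lists, where it called 1.76%, 0.354% and 0.143% of all genes. A paired fit, given with CDKN1A, called 5, where it called 5.2% of all genes. Over all 11875 genes, 6881 were below 0 with shFAM83H-AS1_1 and 25.3% had an unadjusted p under 0.05, and without replicate 3 these were 6016 genes and 17.8%. Among 65 tested mitotic genes outside the set, 57 had a log2 change below 0 with shFAM83H-AS1_1 (median -0.24) and 7 had an unadjusted p under 0.05. Without replicate 3 the median was -0.00, with 32 above 0 and 33 below, and 2 had such a p. In replicate 3 itself, 57 of the 65 lay below the other 8 libraries, where 42.7% of all genes did. The lowest with shFAM83H-AS1_1 were CKAP5, a microtubule polymerase, at -0.66 (-0.22 without replicate 3) and CDCA2, a phosphatase subunit of anaphase chromatin, at -0.62 (-0.06), and the highest were the condensin subunit NCAPD2 at 0.32 (0.32) and the kinetochore subunit SPC24 at 0.47 (0.43). SPC24 had 39.5, 37.4 and 41.8 FPKM in shFAM83H-AS1_1, against 30.0, 26.6 and 28.1 FPKM in shNC, and its adjusted p was 0.0655. Replicate 3 was the highest of the 9 libraries for SPC24.

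Of 17 tested APC/C subunits and modulators, 12 were below 0 with shFAM83H-AS1_1 (median -0.19) and 3 had an unadjusted p under 0.05, from -0.73 for ANAPC1 and -0.67 for the APC/C inhibitor FBXO5 to 0.21 for ANAPC16 and 0.49 for ANAPC11. In the fit of 8 libraries without replicate 3 the median was -0.01, with 8 above 0 and 9 below, and 2 had such a p. Over all genes, 25.3% had such a p with shFAM83H-AS1_1, and 17.8% did without replicate 3. Of 14 tested subunits of the DREAM, MYBL2-MuvB and NF-Y factors that read the promoters of this set, 13 were below 0 (median -0.28) and 2 had an unadjusted p under 0.05, from -0.60 for LIN54, which binds the CHR, and -0.60 for E2F4 to -0.07 for NFYC and 0.27 for TFDP2. In 8 libraries, without replicate 3, that median was -0.12, 11 were below 0 and 1 had such a p.

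Of 8 genes that restrain the G2/M transition, 5 were above 0 with shFAM83H-AS1_1 (median 0.13) and 0 had an unadjusted p under 0.05, from -0.41 for the checkpoint kinase CHEK1 and -0.16 for PKMYT1, which phosphorylates CDK1, to 0.29 for BTG2 and 0.66 for CDKN1A, which encodes the CDK inhibitor p21. Without replicate 3 the median was 0.03, with 4 above 0 and 4 below, and 1 had such a p. Over all genes, 25.3% had such a p with replicate 3 in the fit and 17.8% without it. CDKN1A had 5.81, 7.83 and 14.0 FPKM in shFAM83H-AS1_1, 9.68, 6.10 and 12.5 FPKM in shFAM83H-AS1_2, and 5.21, 3.50 and 7.17 FPKM in shNC. The groups overlapped, and the limma adjusted p was 0.236 with shFAM83H-AS1_1 (0.583 without replicate 3) and 0.737 with shFAM83H-AS1_2. Within the pairs of same-numbered libraries, CDKN1A was higher with shFAM83H-AS1_2 in 3 of 3, by 0.72 on the log2 scale (95% interval 0.54 to 0.91, limma adjusted p = 0.00936 in the paired fit of only these groups, and 0.628 with the replicate block over 9 libraries). That paired fit also called ANAPC1 (-0.37, adjusted p = 0.0479), UBE2D1 (-0.51, adjusted p = 0.0347), RFC3 (-0.53, adjusted p = 0.0208) and MCM6 (0.61, adjusted p = 0.0215) from these lists, all named after their values were seen, where it called 5.2% of all genes. The pairs of this fit were chosen from these same data, so its p-values may be too small.

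The 36 DNA replication genes, which act one cell cycle phase earlier, had a median log2 change of -0.22 with shFAM83H-AS1_1 and -0.08 with shFAM83H-AS1_2. An unadjusted p under 0.05 was reached by 13 of them with shFAM83H-AS1_1, where 25.3% of all genes did, and by 3 with shFAM83H-AS1_2, where 6.68% did. Without replicate 3 the median with shFAM83H-AS1_1 was -0.09 and 6 had such a p, where 17.8% of all genes did. In replicate 3 their median was -0.38 and 24 of 36 lay below the other 8 libraries, where 42.7% of all genes did. The lowest log2 changes with shFAM83H-AS1_1 were those of POLA1 (-0.89), a DNA polymerase alpha subunit, and MCM10 (-0.85), and the highest those of the licensing factor CDT1 (0.43) and the primase PRIM1 (0.46). MCM10 was lower in 3 of 3 shFAM83H-AS1_1 libraries, at 4.55, 5.49 and 2.2 FPKM, against 7.38, 7.62 and 8.29 FPKM in shNC, with an adjusted p of 0.0857, and 0.0768 without replicate 3.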

How the data were processed

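RNA-seq of 9 libraries of MDA-MB-468 cells was analysed from a table of FPKM per gene that the authors deposited. Per the submitters' processing notes, the genome build was hg38, and Bowtie2 2.2.3, HTSeq 0.6.0 and HISAT2 2.1.0 were used. The strand setting is not given in the sources used here, nor is the annotation release. Of 31005 lines, 1 named no gene and was left out. Dividing low FPKM by the worth of 1 read gave whole reads for 100% of genes (tolerance 1e-05 reads). FPKM scales by length and depth only, so differences in RNA quality or base composition between libraries stay in the values.

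Groups and replicate numbers came from the sample titles. Levels were tested as log2(FPKM + 1), which understates changes of genes with low values, with limma 3.58.1 in R 4.3.3 (trended moderated variance, 1 mean per group, all 9 libraries in 1 fit, two-sided). Genes that reached 1 FPKM in 3 or more libraries were kept (11875), and p was adjusted by Benjamini-Hochberg over all of them with 0.05 as threshold. The scripts were tested on simulated data. Same-numbered libraries of shFAM83H-AS1_2 and shNC deviated together from their group means (correlations 0.20, 0.35 and 0.39), each above 0.1, so these numbers were taken as pairs, from the data and not from a label. For shFAM83H-AS1_1 and shNC the correlations were 0.18, -0.39 and -0.25, and for shFAM83H-AS1_2 and shFAM83H-AS1_1 they were 0.13, -0.45 and -0.24. The replicate number thus did not go with a shared shift in all groups. The pairs were chosen from the same data that gave the paired p-values, so these p-values may be too small.

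The members and gene lists were chosen with earlier results of these data known. Values in every library are given for the 2 members with the highest mean in each role group and, in each contrast, for the 2 at either end of the log2 changes. From other lists the 2 highest and the 2 lowest with shFAM83H-AS1_1 are named. The alternatives were another pseudocount, other filters, other scalings, a replicate block, removal of GC and length trends, fits of only the groups compared, library weights, voom and leaving out each library. Combined trend removal without replicate 3 of shFAM83H-AS1_1, voom without that library and the block in a fit of only shFAM83H-AS1_2 and shNC, read for all lists, were added after seeing the data. Promoter windows are from RefSeq (GRCh38.p14), and gene lengths are those of the deposited FPKM. GC content is that of the longest transcript in GENCODE release 29. Tables and plots were made in Python 3.11.15 (pandas 2.3.3, numpy 2.4.6, matplotlib 3.10.9).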

Additional observations from a re-analysis of the deposited data

How the results depend on the processing

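The count of members called with shFAM83H-AS1_2 against shNC, and between the hairpins, was 0 under all alternatives run. With shFAM83H-AS1_1 against shNC it was 0 in the analysis as reported and 1 under library weights (CCNA2, -0.47, adjusted p = 0.0252). It was 1 with trends in GC content and length removed and replicate 3 of shFAM83H-AS1_1 left out, a combination chosen after seeing the data (HMMR, 0.87, adjusted p = 0.0457). Over the fits that left out 1 library each it was 0 to 1, with CCNA2 called (-0.82, adjusted p = 0.0445) without replicate 2 of shFAM83H-AS1_1. The cause was not tested. The median log2 change over these fits ran from -0.43 to 0.03 with shFAM83H-AS1_1, reaching 0.03 without its replicate 3 and -0.39 without shNC replicate 2. It ran from -0.11 to 0.08 with shFAM83H-AS1_2 (-0.11 without shNC replicate 2) and from -0.04 to 0.52 between the hairpins (-0.04 without replicate 3 and 0.52 without replicate 2 of shFAM83H-AS1_1). The median of replicate 3 of shFAM83H-AS1_1 against the other 8 libraries, -0.97 as reported, was -0.77 with GC and length trends removed. It was also -0.77 with median of ratios scaling, which divided the values of that library by 0.880 and so raised them. With the replicate number as a block over 9 libraries, 0 members were called in each contrast, and in a paired fit of only shFAM83H-AS1_2 and shNC 0 members were called and the median stayed 0.02, so the pairing changed no call of a member. Over all genes that paired fit called 617, against 3 in the analysis as reported and 33 in an unpaired fit of these groups alone. For the fits that called CCNA2 or HMMR, the share of all genes called is not given here. Those calls are therefore not read as a result about the members. The sign of the log2 change differed from the reported one in 82 of 724 values with shFAM83H-AS1_1, in 27 of 33 members. Leaving out replicate 3 of shFAM83H-AS1_1 alone took the number of members above 0 from 5 to 19. It moved ANLN from -0.92 to 0.01 and MKI67 from -0.78 to 0.09.

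Depth limits CENPE and ASPM in replicate 3 of shFAM83H-AS1_1 (20 and 46 reads). The filter of 5 FPKM kept 31 of 35 members, and all 35 entered without a filter.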
